A study of Mus musculus with 12 samples.

Results

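Potassium channel genes were followed in neurons sorted from the embryonic mouse pontine nucleus, as the rows of the count table whose symbol starts with Kcn, followed by lower-case letters and a digit. This gave 96 of the 23079 genes in the table. Of these, 35 carry symbols of the voltage-gated families (Kcna to Kcnd, Kcnh and Kcnq, with Kcnf and Kcng, which are silent alone), 15 are inward rectifiers (Kcnj), 14 two-pore channels (Kcnk) and 9 calcium-activated channels with their beta subunits (Kcnm and Kcnn). The remaining 23 are 12 accessory subunits, 5 modulatory subunits, 3 sodium- or pH-activated channels and 3 RNAs that carry a Kcn name without encoding a channel. The rule reads the symbol alone.

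Potassium channels let potassium leave the cell and so set the resting potential, the length of the action potential and the firing rate of a neuron. Voltage-gated channels open when the membrane depolarizes, inward rectifiers hold the membrane near rest and close on depolarization, two-pore channels carry a leak current, and calcium-activated channels open when calcium enters during a spike. In neurons approaching birth these currents change as firing matures, and the pontine nucleus, which these neurons form, relays cortical signals to the cerebellum.

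All animals were of the CD-1 strain at stage E18.5, shortly before birth, and each of the 12 libraries came from 2000 sorted neurons of the pontine nucleus. The reference group was Math1tdTomato (n = 6), neurons labelled through Math1 (Atoh1), a gene of the rhombic lip. Its columns name either creErt2 (3 libraries) or tdT (3 libraries). Neurons of Hoxa5tdTomato (n = 3) carried a label tied to the homeobox gene Hoxa5, and their columns name Hoxa5 and cre. Math1Hoxa5-IRES-GFP (n = 3) has columns that name Math1, Cag, lsl and Hoxa5, the parts of an allele that would place Hoxa5 under the Cag promoter in the Math1 lineage. Nothing in the labels says whether replicates came from separate embryos or litters or whether embryos were pooled, so the p-values measure the spread between these libraries, which may be technical.

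From the words of the column names, the Hoxa5tdTomato libraries were set beside the creErt2 references (set 1, 9973484 to 13302076 counts per library). The Math1Hoxa5-IRES-GFP libraries were set beside the tdT references (set 2, 22355961 to 29820776 counts). This pairing is an inference, and depth and set cannot be told apart. Levels are given in CPM, the count of a gene relative to the TMM-scaled library size. Hoxa5 itself, the check of the labels, was at 119 to 222 CPM in Hoxa5tdTomato and at 4.35 to 32.2 CPM in the 6 references. Libraries labelled Math1Hoxa5-IRES-GFP had 9.73, 16.8 and 82.0 CPM, so replicates 1 and 2 lay within the range of the references. Replicate 3 of that label stood apart, with 13074 genes detected and correlations of 0.896 and 0.890 with replicates 1 and 2, which correlated at 0.946 with each other. The lowest correlations within the other 3 groups of columns were 0.955 to 0.965. Every direction drawn from these libraries below is one of libraries that bear this label. Of 10 pontine neuron markers, 10 were tested, and their summed level was 5792 to 6302 CPM in Hoxa5tdTomato and 8158 to 10649 CPM in the other libraries, of which Nfib alone held 2764 to 3440 and 4205 to 6289 CPM.

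Of the 96 members, 6 had no count in any library: Kcna7, Kcna10, Kcnj1, Kcnk5, Kcnk13 and Kcnk16. A further 10 had fewer than 10 counts over all libraries, and 52 had a count in each of the 12. The filter on low counts kept 69: 29 of 35 voltage-gated genes, 11 of 15 inward rectifiers, 7 of 14 two-pore channels, 6 of 9 calcium-activated genes and 16 of the remaining 23. Levels between genes are compared only per length, as CPM per kilobase of the gene length in the table, given as mean ± SD over the 12 libraries.

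Per length, Kcnd2 had the highest mean over the 12 libraries, with 36.0 ± 13.2 CPM per kilobase. Kcnd2 encodes Kv4.2, the pore of a rapidly inactivating A-type current of dendrites. Next were Kcna2 (Kv1.2, a low-threshold delayed rectifier of axons) at 25.7 ± 10.9 and Kcnk9 (TASK-3, an acid-sensitive leak channel) at 25.6 ± 8.51 CPM per kilobase. Kcnq3, a subunit of the M-current that limits repetitive firing, stood at 11.7 ± 4.09 CPM per kilobase. The calcium sensor Kcnip3 was at 15.0 ± 3.62 and Kcnb2 (Kv2.2, a slow delayed rectifier) at 13.6 ± 3.56. The SDs of Kcnd2 and Kcna2 span each other's means, as do those of Kcna2 and Kcnk9, so neither order is resolved. In the 6 references alone, Kcna2 was at 31.8 ± 5.47, Kcnk9 at 31.6 ± 7.28 and Kcnd2 at 24.8 ± 5.69 CPM per kilobase (SD over these 6 libraries). The 12 highest members held 55.0% of the summed level per length of all members that encode proteins.

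In the other classes the leading genes lay below Kcnd2 in the mean over the 12 libraries, though some came near Kcnq3 or above it. Among two-pore genes, Kcnk2 (TREK-1, opened by stretch and heat) was at 13.1 ± 4.03, Kcnk1 at 11.4 ± 5.75 and Kcnk10 (TREK-2) at 7.81 ± 2.37 CPM per kilobase. The leading inward rectifiers were Kcnj3 at 7.88 ± 2.54 and Kcnj6 at 6.09 ± 2.78, which encode subunits of the channel opened by G proteins, with Kcnj13 at 6.18 ± 5.26 and Kcnj12 at 3.80 ± 1.53. Among calcium-activated genes, the large-conductance channel had its beta subunit Kcnmb4 at 11.4 ± 3.17, Kcnmb2 at 4.35 ± 2.70 and the pore Kcnma1 at 3.69 ± 1.44, while the small-conductance pore Kcnn2 was at 7.82 ± 3.22 CPM per kilobase. Of the sodium-activated channels, Kcnt1 was at 6.28 ± 1.99. Kcnj13 and Kcnmb4, among other members, overlap genes on the opposite strand (Gigyf2 and Kcnmb4os1). Their levels may include reads of those genes, since the strand setting is not given in the sources used here.

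**Figure D1:**
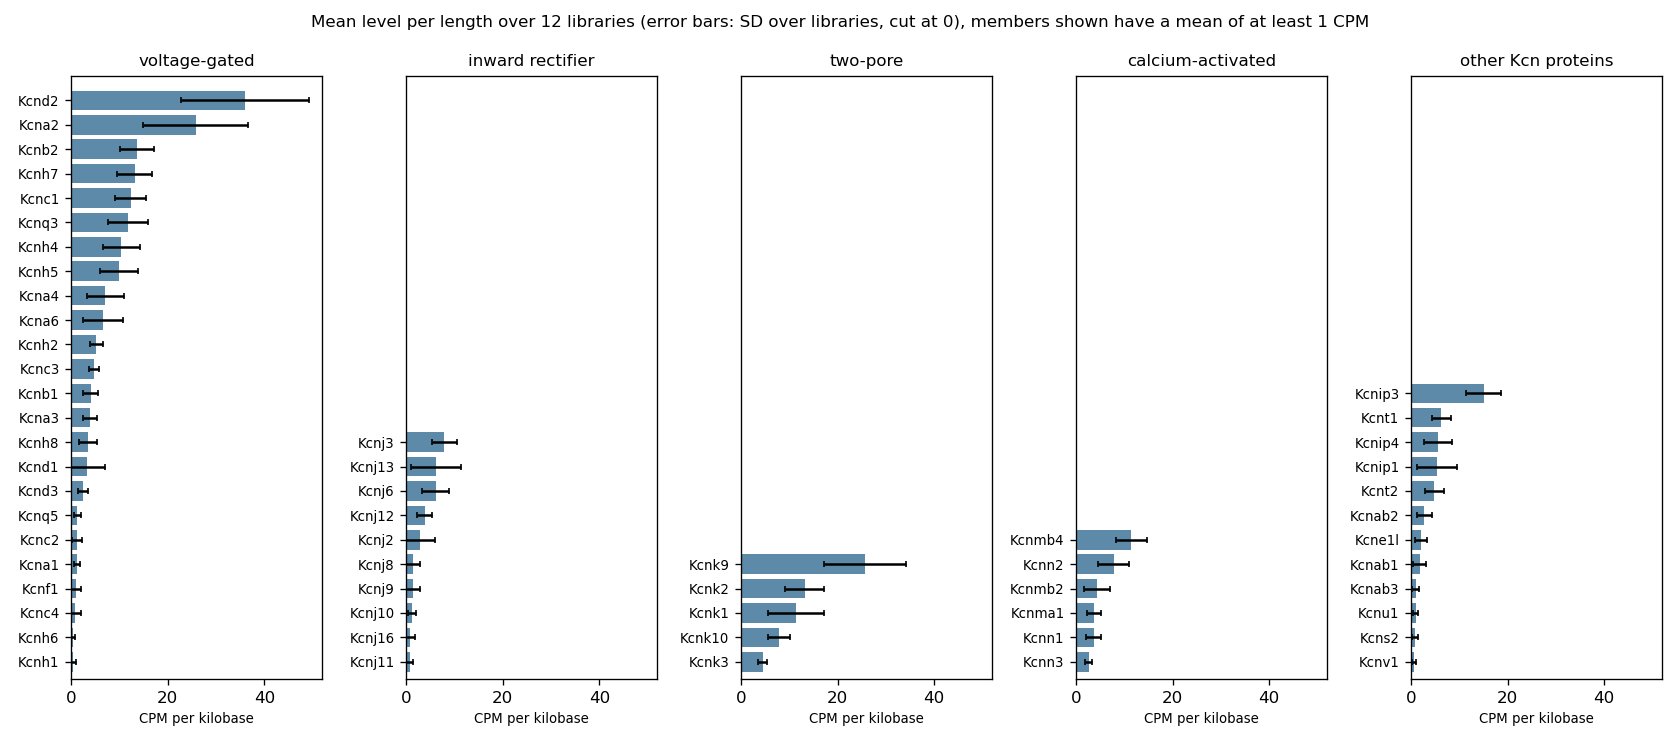
Mean level of protein-coding members with a mean of at least 1 CPM, by class, in CPM per kilobase over the 12 libraries; error bars are the SD over libraries. Kcnd2 at 36.0, Kcna2 at 25.7 and Kcnk9 at 25.6 lead, and no inward rectifier exceeds 7.88.

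Summed over a class, the voltage-gated genes were at 1150 to 1182 CPM in the set 1 references, 1131 to 1213 in Hoxa5tdTomato, 1194 to 1320 in the set 2 references and 1281 to 1309 in the libraries labelled Math1Hoxa5-IRES-GFP. With the TMM scaling used here, these ranges overlap between each group and the references of its set. The inward rectifier sum was 79.3 to 123 CPM in the set 1 references against 123 to 164 in Hoxa5tdTomato, and 61.2 to 97.4 in the set 2 references against 118 to 193 in the libraries labelled Math1Hoxa5-IRES-GFP. In set 2 the ranges did not overlap, and in set 1 they overlapped at 123 CPM. Two-pore genes summed to 152 to 160, 123 to 149, 149 to 201 and 134 to 182 CPM in the same order of groups, so that Hoxa5tdTomato lay below the references of set 1, and calcium-activated genes to 148 to 169, 157 to 177, 123 to 159 and 111 to 183 CPM. In set 1 some of these overlaps depend on the scaling. With library size only, voltage-gated sums were 1175 to 1212 CPM in the references and 1265 to 1354 in Hoxa5tdTomato. Inward rectifier sums were 81.9 to 124 and 137 to 179 CPM, and neither class overlapped. Two-pore sums were 154.5 to 165.7 and 137.4 to 163.8 CPM, which overlap. No test was run on the sums.

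The first comparison asks how the neurons labelled through Hoxa5 differ from the Math1 population. Against the 6 references, 3 of 69 members passed an adjusted p of 0.05 in edgeR's quasi-likelihood test with Benjamini-Hochberg adjustment over 14732 genes. Kcnd2 and Kcnj2 were higher and Kcna2 was lower. Of all genes tested, 1.73% passed (0.842% higher and 0.889% lower). The median log2 fold change of the 69 was 0.33, against 0.00 over all genes, and for 14 of the 69 the groups did not overlap, against 14.1% of all genes. Of these, 11 lay above all references (7.15% of all genes) and 3 below (6.93%). Against the 3 references of set 1 alone, in a fit with 4 groups, Kcnd2 passed as the single member, where 0.557% of all genes passed, and 26 members did not overlap (25.3% of all genes). In a fit of only the 6 libraries of set 1, added after the data were seen, 9 members passed in edgeR, where 6.55% of all genes passed. They were Kcna6, Kcnc2, Kcnd2, Kcnh4, Kcnj2, Kcnj8 and Kcnma1, which were higher, and Kcna2 and Kcnn2, which were lower.

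In the second comparison, the libraries labelled Math1Hoxa5-IRES-GFP were set against the same 6 references, so both comparisons share their controls. Again 3 of 69 members passed, Kcnj2 and Kcnd2 higher and Kcnab3 lower, where 1.84% of all genes passed (1.30% higher and 0.543% lower). The median log2 fold change was -0.01 for the members and 0.00 for all genes. Groups did not overlap for 4 of the 69 members and for 6.37% of all genes, with 3 members above (3.11% of all genes) and 1 below (3.27%). Against the 3 references of set 2, Kcnj2 was the single member that passed, where 0.862% of all genes passed, and 6 members did not overlap (12.5% of all genes). The difference between the within-set effects reached an adjusted p of 0.05 for 0 of 14732 genes in edgeR, while 1181 genes and 4 members had an unadjusted p under 0.05 and DESeq2 called 80 genes and 1 member.

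**Figure D2:**
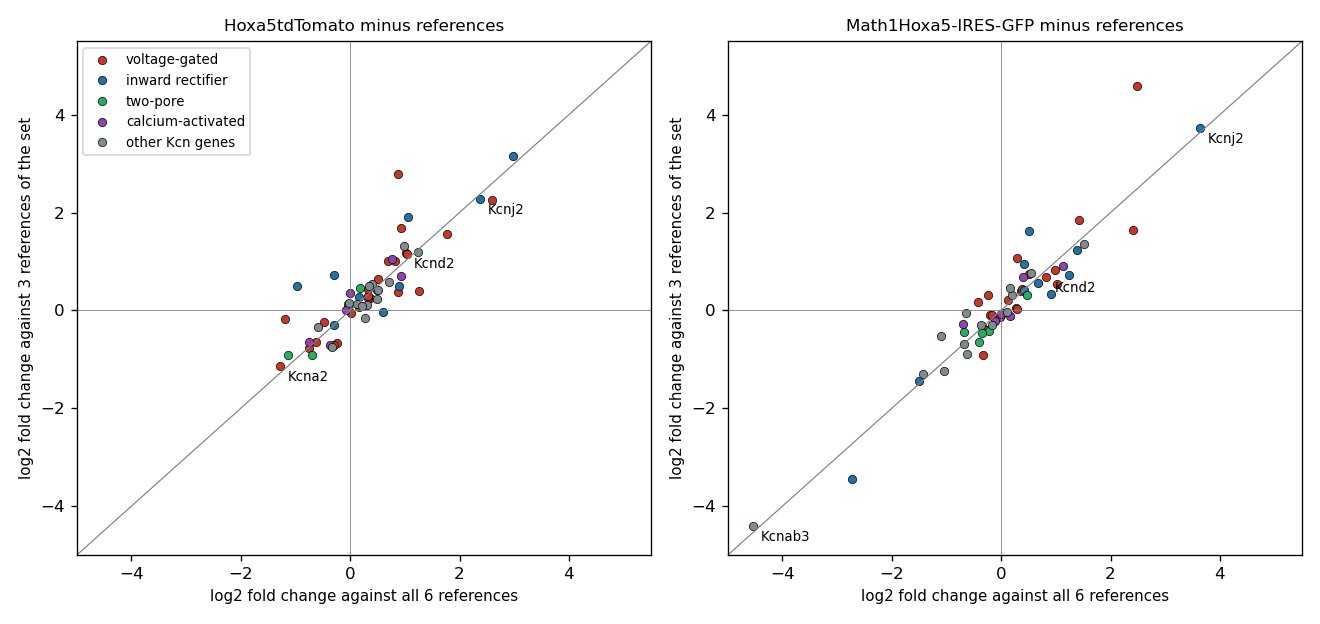
Log2 fold change of tested members with a mean of at least 1 CPM against all 6 references (x axis) and against the 3 references of its set (y axis), coloured by class; members that passed against all 6 references are named. Kcnj2 lies near the diagonal at 2.37 and 2.27 in Hoxa5tdTomato and at 3.63 and 3.73 in Math1Hoxa5-IRES-GFP.

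Kcnj2 encodes Kir2.1, a strong inward rectifier that holds the resting potential of neurons, muscle and vessel cells close to the potassium equilibrium. Its level was 1.07, 3.29 and 5.98 CPM in the set 1 references and 8.45, 17.0 and 24.5 CPM in Hoxa5tdTomato. In set 2 it was 2.71, 2.85 and 3.47 CPM in the references and 28.2, 48.6 and 43.2 CPM in the libraries labelled Math1Hoxa5-IRES-GFP. All 6 libraries of both groups thus lay above all 6 references, those labelled Math1Hoxa5-IRES-GFP higher than those of Hoxa5tdTomato.

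In Hoxa5tdTomato, Kcnj2 was 5.17-fold above the references (log2 2.37 ± 0.44, adjusted p = 0.0113, edgeR). Within set 1 the log2 difference was 2.27 ± 0.56 and did not pass (adjusted p = 0.107, edgeR). It passed with the replicate number as a block (adjusted p = 0.0405, edgeR), but whether these numbers pair the libraries is not resolved. It also passed without replicate 3 of Math1Hoxa5-IRES-GFP (0.0288) and with only the libraries of set 1 (0.0147). The last 2 fits were added after the data were seen. The pooled call was lost without Hoxa5tdTomato replicate 2 (adjusted p = 0.0716) or replicate 3 (adjusted p = 0.0976). It was 12.4-fold above the references in the libraries labelled Math1Hoxa5-IRES-GFP (log2 3.63 ± 0.44, adjusted p = 0.000212, edgeR). There it passed within set 2 as well (3.73 ± 0.58, adjusted p = 0.00524, edgeR) and with any 1 of the 12 libraries left out. The difference between both within-set effects was -1.46 ± 0.76 and was not called (adjusted p = 0.658, edgeR).

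Kcnj2 is known from vessel cells too, and markers of these cells moved with the Hoxa5tdTomato group. The summed level of 9 endothelial markers was 87.1 to 171 CPM in Hoxa5tdTomato and 0.749 to 22.4 CPM in the references. All 9 had a positive log2 fold change there, with a median of 3.36. The 8 pericyte markers summed to 66.5 to 149 CPM against 2.39 to 19.8 CPM. Their part in the Kcnj2 difference of Hoxa5tdTomato was not tested, and in such bulk samples more cells of a type and more RNA per cell cannot be told apart.

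The endothelial sum of the libraries labelled Math1Hoxa5-IRES-GFP was 1.02, 35.6 and 0.201 CPM and the pericyte sum 10.7, 49.2 and 3.31 CPM in replicates 1 to 3. Kcnj2 was at 28.2 and 43.2 CPM in replicates 1 and 3, where the endothelial sums lay within or below the range of the references and the pericyte sums within it. Kcnj8 (Kir6.1), the pore of the ATP-sensitive channel of pericytes, was at 5.07, 7.47 and 10.8 CPM in Hoxa5tdTomato, above the 0 to 3.31 CPM of all 6 references, but did not pass (log2 2.98 ± 1.44, adjusted p = 0.359, edgeR). Libraries labelled Math1Hoxa5-IRES-GFP held it at 6.52, 1.26 and 0 CPM.

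**Figure D3:**
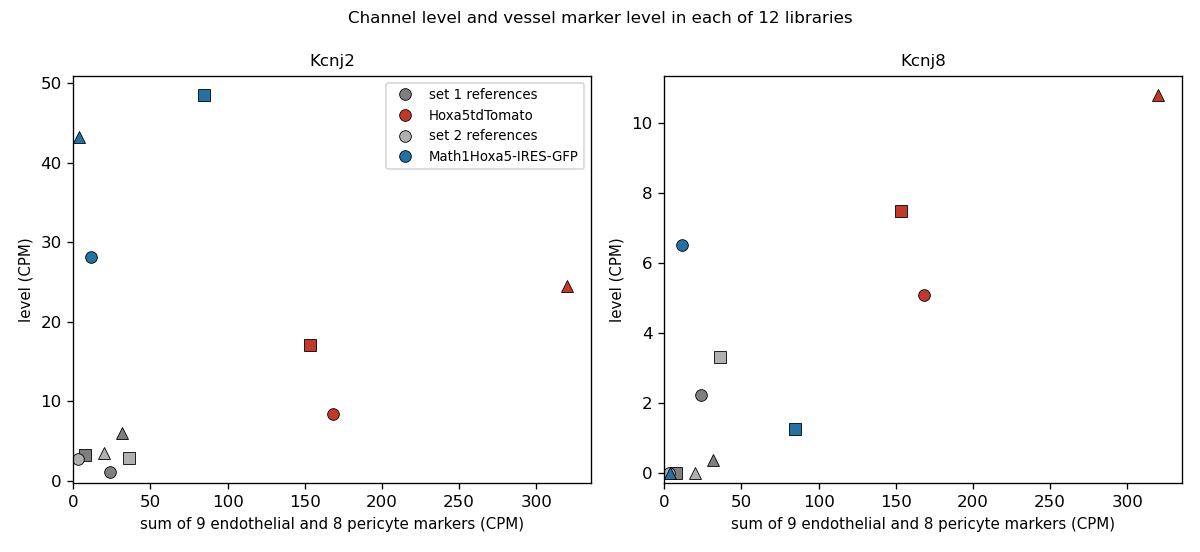
Level of Kcnj2 (left) and Kcnj8 (right) in CPM against the summed level of 17 vessel markers in CPM, 1 point per library, with circles, squares and triangles for replicates 1, 2 and 3. Kcnj2 is at 28.2 and 43.2 CPM in 2 libraries labelled Math1Hoxa5-IRES-GFP at the low end of the marker axis, while Kcnj8 exceeds 5 CPM in the 3 Hoxa5tdTomato libraries at its high end and in replicate 1 of Math1Hoxa5-IRES-GFP.

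Kcnd2 had the highest mean level per length over the 12 libraries, though not in the 6 references alone. It was at 98.8, 114 and 90.5 CPM in the set 1 references and 229, 263 and 193 CPM in Hoxa5tdTomato. It was at 132, 154 and 88.0 CPM in the set 2 references and 205, 225 and 169 CPM in the libraries labelled Math1Hoxa5-IRES-GFP. The lowest of the 6 libraries of both groups (169 CPM) was above the highest reference (154 CPM).

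Within set 1, Kcnd2 was 2.26-fold higher in Hoxa5tdTomato (log2 1.18 ± 0.21, adjusted p = 0.0180, edgeR). The call against all references was lost without Hoxa5tdTomato replicate 1 (adjusted p = 0.0792) or replicate 2 (adjusted p = 0.107). It was 1.77-fold above all references in the libraries labelled Math1Hoxa5-IRES-GFP (log2 0.83 ± 0.19, adjusted p = 0.0267, edgeR), and within set 2 the difference of 0.68 ± 0.20 did not pass (adjusted p = 0.154). That pooled call did not pass with library size as the only scaling (adjusted p = 0.0700), nor without set 1 reference replicate 1, 2 or 3 (0.0631, 0.0595 and 0.0668), set 2 reference replicate 3 (0.0550) or replicate 2 of the label (0.0772). The difference between the within-set effects was 0.50 ± 0.29 (adjusted p = 0.708, edgeR).

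Partners of the Kv4 channel did not pass in either comparison in edgeR. Of the calcium sensors that bind Kv4, Kcnip3 was at 36.5 to 84.3 CPM over the 6 references, 48.1 to 58.1 in Hoxa5tdTomato and 51.7 to 65.4 in the libraries labelled Math1Hoxa5-IRES-GFP. Kcnip1 was at 10.1 to 16.4 CPM in Hoxa5tdTomato and at 13.6, 23.9 and 50.2 CPM in the libraries labelled Math1Hoxa5-IRES-GFP, with 5.60 to 20.9 CPM in the references, and did not pass (log2 1.51, adjusted p = 0.0979, edgeR; adjusted p = 0.0269 in DESeq2). Kcnip4 was at 12.0 to 16.5 CPM in the references, at 17.2, 27.7 and 17.1 CPM in Hoxa5tdTomato, above all 6, and at 13.97, 35.1 and 0.602 CPM in the libraries labelled Math1Hoxa5-IRES-GFP. The transmembrane partner Dpp6 had log2 fold changes of 0.10 in both comparisons, and Dpp10 of -0.64 and -0.44, none of which passed. The sister genes Kcnd1 and Kcnd3 did not pass either, Kcnd1 at 5.12 to 25.5 CPM in the libraries labelled Math1Hoxa5-IRES-GFP and 0.355 to 6.79 CPM in the references (log2 2.41, adjusted p = 0.157, edgeR).

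Kcna2 had the opposite direction. It was at 325, 344 and 323 CPM in the set 1 references and 113, 168 and 172 CPM in Hoxa5tdTomato. In set 2 it was at 462, 320 and 434 CPM in the references and 168, 253 and 497 CPM in the libraries labelled Math1Hoxa5-IRES-GFP. The Hoxa5tdTomato libraries lay below all 6 references, and so did replicates 1 and 2 of Math1Hoxa5-IRES-GFP, while replicate 3 was the highest of the 12 libraries.

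Against all references, Kcna2 was 2.44-fold lower in Hoxa5tdTomato, and within set 1 the log2 difference of -1.13 ± 0.29 did not pass (adjusted p = 0.130, edgeR). The pooled call was also lost without any of the 3 Hoxa5tdTomato libraries (adjusted p = 0.189, 0.105 and 0.0856) and without set 2 reference replicate 1 (0.0570) or 3 (0.0599). In the libraries labelled Math1Hoxa5-IRES-GFP the difference was -0.27 ± 0.26 (adjusted p = 0.645), and -0.41 ± 0.29 within set 2 (adjusted p = 0.580, edgeR). Replicate 3 decided this value. Without it the within-set difference was -0.95 ± 0.21 and passed in edgeR (adjusted p = 0.0172), and in the same fit Kcna2 passed within set 1 (-1.13 ± 0.18, adjusted p = 0.00209). That fit was added after the data were seen.

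Other subunits that assemble with Kv1.2 did not pass against all 6 references in edgeR. Kcna1 (Kv1.1) was at 4.76 to 19.6 CPM in the references, 4.89 to 18.0 in Hoxa5tdTomato and 8.24 to 12.2 in the libraries labelled Math1Hoxa5-IRES-GFP. Kcna6 (Kv1.6) was at 13.1, 23.4 and 10.6 CPM in the set 1 references and 62.5, 37.0 and 51.0 CPM in Hoxa5tdTomato, which do not overlap, but at 32.7 to 39.3 CPM in the set 2 references (within set 1, log2 1.68, adjusted p = 0.187, edgeR). Kcna6 passed within set 1 without replicate 3 of Math1Hoxa5-IRES-GFP (adjusted p = 0.0101) and with only the libraries of set 1 (0.00168). Its reads may include those of an antisense transcript that overlaps it, since the strand setting is not given in the sources used here. Kcna4 (Kv1.4) was at 50.8, 43.4 and 4.31 CPM in the libraries labelled Math1Hoxa5-IRES-GFP against 10.7 to 24.95 CPM in the set 2 references. The set 1 references had 43.3, 27.6 and 43.8 CPM, so replicate 2 of that label lay within the range of all 6 references.

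The beta subunits Kcnab1 to Kcnab3 bind the inner face of Kv1 channels, and some of them speed inactivation. Kcnab3 was at 1.51, 6.13 and 3.80 CPM in the set 1 references, 4.80, 3.37 and 4.03 in Hoxa5tdTomato and 1.25, 3.03 and 5.32 in the set 2 references. In the libraries labelled Math1Hoxa5-IRES-GFP it was at 0.0466, 0.135 and 0.251 CPM, from 9 counts in all 3 libraries together, below each of the other 9 libraries.

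This was a 23.3-fold lower level than in all references (log2 -4.54 ± 0.99, adjusted p = 0.0223, edgeR). Within set 2 the difference was -4.41 ± 1.04 and missed the threshold (adjusted p = 0.0658), as did the pooled value without set 1 reference replicate 2 (adjusted p = 0.0563) or replicate 2 of the label (0.0557). In Hoxa5tdTomato the difference was 0.21 ± 0.75 (adjusted p = 0.946, edgeR). The difference between the within-set effects, 4.50 ± 1.33, was not called in edgeR (adjusted p = 0.522) and was called in DESeq2 (4.59, adjusted p = 0.0320). An antisense gene, Kcnab3os, overlaps Kcnab3, and reads of both cannot be told apart without strand. Kcnab1 and Kcnab2 did not pass, with 1.57 to 4.42 and 5.13 to 26.3 CPM in the libraries labelled Math1Hoxa5-IRES-GFP against 2.44 to 15.5 and 3.10 to 12.8 CPM in the references.

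**Figure D4:**
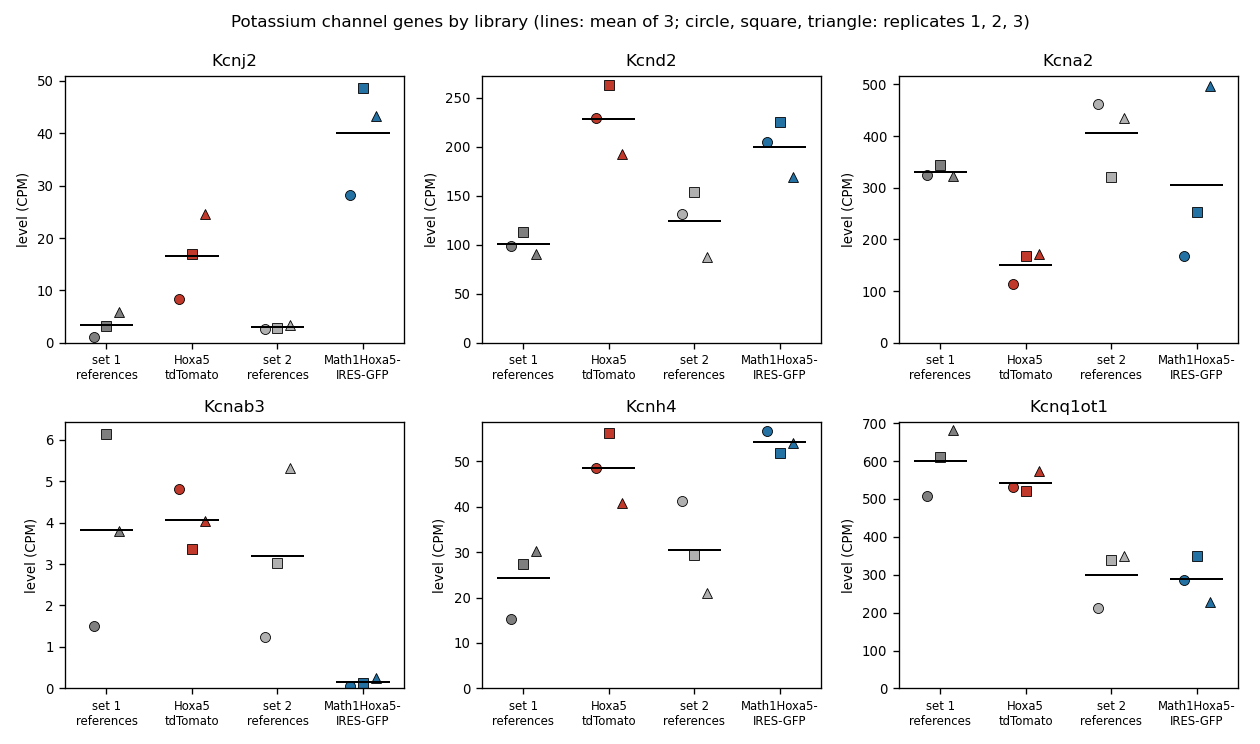
Level in CPM of 6 members in each library, by group of columns; lines are means of 3 libraries and circles, squares and triangles are replicates 1, 2 and 3. Kcnj2 and Kcnd2 lie above all references in both groups, Kcna2 below them in Hoxa5tdTomato, and Kcnab3 is at most 0.251 CPM in Math1Hoxa5-IRES-GFP, while Kcnq1ot1 is higher in the 6 libraries of set 1 than in the 6 of set 2.

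Among the other voltage-gated genes, Kcnh4 (an ELK-type channel that opens near rest) lay just outside the threshold in the second comparison. It was at 15.2, 27.3 and 30.2 CPM in the set 1 references and 48.4, 56.2 and 40.8 in Hoxa5tdTomato, and at 41.2, 29.3 and 21.0 in the set 2 references against 56.6, 51.9 and 54.0 CPM in the libraries labelled Math1Hoxa5-IRES-GFP. Within each set the group and its references did not overlap. Against all references the log2 differences were 0.82 (adjusted p = 0.136) and 0.98 (adjusted p = 0.0678) in edgeR, and both passed in DESeq2 (adjusted p = 0.0446 and 0.00967). Just inside the threshold were Kcna2 in the first and Kcnd2 in the second comparison.

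Further genes with large fitted differences did not pass. Kcnc2 (Kv3.2, a fast delayed rectifier) was at 12.5, 25.9 and 8.97 CPM in Hoxa5tdTomato, all above the 0.892 to 6.48 CPM of the references (log2 1.76, adjusted p = 0.129, edgeR; adjusted p = 0.0384 in DESeq2). Kcnh6 was at 1.83 to 4.002 CPM there against 0.0357 to 0.800 in the references (log2 2.60, adjusted p = 0.319). Kcnh1 was at 0 to 12.2 CPM in the references (log2 -1.19 and -0.33). Kcnc4 had a log2 difference of 2.49 in the libraries labelled Math1Hoxa5-IRES-GFP, from 13.9 CPM in replicate 3 and at most 0.978 CPM in the other two. Kcnh5 had a value of -0.42 there (adjusted p = 0.635, edgeR).

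Kcnb2 and Kcnc1 did not pass in either comparison. Kcnb2 was at 42.0 to 67.5 CPM in Hoxa5tdTomato, below the 70.1 to 98.2 CPM of all 6 references, without passing (log2 -0.63, adjusted p = 0.219, edgeR). Kcnc1 (Kv3.1) was at 74.7 to 181 CPM over all 12 libraries.

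Of the remaining inward rectifiers, none of those tested passed against all 6 references over the 12 libraries. Kcnj5 had counts in replicates 1 and 3 of Hoxa5tdTomato alone and was not tested over the 12 libraries. Without replicate 3 of Math1Hoxa5-IRES-GFP, the filter kept Kcnj5 through the libraries where it was high. Its adjusted p of 0.0433 there (edgeR) is therefore no independent support for a difference. The G protein-gated pair Kcnj3 and Kcnj6 had log2 differences of 0.16 and 0.89 in Hoxa5tdTomato and of 0.67 and 0.42 in the libraries labelled Math1Hoxa5-IRES-GFP. Kcnj6 was at 55.5, 56.0 and 23.7 CPM in the latter against 20.1 to 27.5 CPM in the set 2 references. The set 1 references had 29.5, 36.2 and 66.5 CPM, the last above all libraries of that label. Kcnj12 (Kir2.2, a close relative of Kcnj2) was at 4.21 to 13.5 CPM in Hoxa5tdTomato, 7.57 to 19.4 in the libraries labelled Math1Hoxa5-IRES-GFP and 5.57 to 12.3 in the references. Kcnj16, the gene next to Kcnj2 at a gap of 38196 bases on chromosome 11, had log2 differences of -0.97 and -2.73 (adjusted p = 0.785 and 0.287, edgeR), and of 0.50 within set 1. Kcnj9 was at 0.444 to 12.1 CPM in the references (log2 -0.30 and 0.92).

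Some members are known from other cells. Kcnj10 (Kir4.1 of astrocytes) was at 1.18 to 11.1 CPM in the references, 5.18 to 17.3 in Hoxa5tdTomato and 0.0502 to 3.69 in the libraries labelled Math1Hoxa5-IRES-GFP (log2 0.49 and -1.50, neither passing). The summed astrocyte and radial glia markers were at 649 to 1002 CPM in Hoxa5tdTomato, 564 to 928 in Math1Hoxa5-IRES-GFP and 571 to 942 in the references. Slc1a2 (236 to 639 CPM over the 12 libraries) and Fabp7 (129 to 476 CPM) held most of these sums, which say little of the other markers. Kcnj13 (Kir7.1 of choroid plexus) was at 0.749 to 24.6 CPM over all libraries. Kcnk13, known from microglia, had no count in any library.

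No two-pore gene passed against all 6 references in edgeR or DESeq2, where Kcnk6 had no adjusted p in the first comparison (3 and 2 of 7 had an unadjusted p under 0.05 in edgeR, against 14.6% and 16.7% of all genes). Kcnk9 was at 48.4, 48.1 and 35.2 CPM in the set 1 references and 14.9, 25.9 and 29.6 in Hoxa5tdTomato, which do not overlap (log2 within set 1 -0.90, adjusted p = 0.325, edgeR). Libraries labelled Math1Hoxa5-IRES-GFP had it at 20.4 to 27.6 CPM against 25.2 to 36.4 in the set 2 references. Kcnk1 was at 11.5 to 18.0 CPM in Hoxa5tdTomato, below the 22.9 to 55.9 CPM of the references (log2 -1.13, adjusted p = 0.188, edgeR). Kcnk2 was at 89.3, 79.2 and 37.7 CPM in the libraries labelled Math1Hoxa5-IRES-GFP (log2 0.46, adjusted p = 0.377), and Kcnk10 had log2 differences of 0.17 and -0.41. Kcnk6 had 0 counts in the 6 references and 7, 26 and 1 in the 3 Hoxa5tdTomato libraries, at least 32.8-fold higher by a floor of 3 counts over the group (12.9-fold without replicate 2), and was the member just outside the threshold (adjusted p = 0.102, edgeR). The filter on low counts kept Kcnk6 only through libraries in which it had counts, none of them a reference. Its bound and p-value are therefore no independent support for a difference.

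No calcium-activated gene passed against all 6 references in edgeR or DESeq2 (1 and 1 of 6 had an unadjusted p under 0.05 in edgeR), while with only the libraries of set 1 Kcnma1 (log2 0.73, adjusted p = 0.0434) and Kcnn2 (log2 -0.68, adjusted p = 0.0486) passed in edgeR. Kcnma1, the pore of the large-conductance BK channel, was at 49.0 to 61.9 CPM in Hoxa5tdTomato, above the 12.3 to 40.6 CPM of the references (log2 0.93, adjusted p = 0.1495, edgeR), and at 24.8 to 54.4 CPM in the libraries labelled Math1Hoxa5-IRES-GFP. Its beta subunit Kcnmb2 was at 13.3 to 15.7 CPM in Hoxa5tdTomato, above the 2.99 to 12.7 CPM of the references (log2 0.77, adjusted p = 0.512). Kcnn2 (SK2, which carries the after-hyperpolarization) was at 36.6 to 39.0 CPM in Hoxa5tdTomato and 28.1 to 75.1 in the references, and Kcnn1 had log2 differences of -0.75 and -0.12.

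Modulatory subunits did not pass against all 6 references in edgeR. Kcns2, which is silent alone and alters Kv2 channels, was at 5.40 to 10.2 CPM in Hoxa5tdTomato and 1.59 to 4.35 in the references (log2 1.24, adjusted p = 0.511, edgeR). Kcnv1 and Kcne1l had log2 differences of 0.98 and -0.59 there. Kcnu1 was at 3.54, 0.0450 and 0 CPM in the libraries labelled Math1Hoxa5-IRES-GFP against 1.46 to 5.77 in the references (log2 -1.43, adjusted p = 0.566). Replicate 1 decided this value, which was -6.72 and passed without it (adjusted p = 0.0128, edgeR) and -0.85 without replicate 3. Kcng1 and Kcns3 had 0 counts in those libraries against 99 and 36 in the references, at least 19.6-fold and 7.14-fold lower by the same floor, with adjusted p = 0.161 and 0.312 in edgeR (0.0472 for Kcng1 in DESeq2). Set 2 reference replicate 3 held 71 and 29 of these counts, and without it the bounds were 7.10-fold and 1.77-fold. The filter on low counts kept both genes only through libraries in which they had counts, none of them of this label. Their bounds and p-values are therefore no independent support for a difference.

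Replicate 3 of Math1Hoxa5-IRES-GFP stood apart in many members. Kcnt1 was at 71.1 and 66.5 CPM in replicates 1 and 2 and at 10.4 CPM in replicate 3, Kcnn2 at 36.6 and 48.7 against 4.26 CPM, and Kcnt2 at 29.6 and 27.8 against 3.91 CPM. With this library left out, 6 of 73 members passed within set 2 in edgeR, where 2.43% of all genes passed (Kcnj2, Kcna4, Kcnd2 and Kcnj6 higher, Kcna2 and Kcnab3 lower).

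Kcnq1ot1 is not a channel but a long RNA of 83437 bases, transcribed antisense to Kcnq1 and known for silencing neighbouring imprinted genes. Its levels divided the libraries by set, at 507, 610 and 681 CPM in the set 1 references and 531, 522 and 574 CPM in Hoxa5tdTomato, against 213, 339 and 349 CPM in the set 2 references and 287, 350 and 229 CPM in the libraries labelled Math1Hoxa5-IRES-GFP. Between the references of both sets it differed 2.00-fold (log2 1.00 ± 0.19, adjusted p = 0.0199, edgeR) and was the single member of 69 called there, where 1.34% of all genes were called. Leaving out set 1 reference replicate 2 or 3 or set 2 reference replicate 1 left 0 members called, and without replicate 3 of Math1Hoxa5-IRES-GFP 3 were called. Within each set it did not pass (log2 -0.14 and -0.06). Kcnq1 itself was at 0 to 2.20 CPM over the 12 libraries.

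The 250 bases before the RefSeq start (GRCm38.p6) are shown for the called members that had an entry as the reference sequence beside the values above. The start used for Kcna2 lies inside the span of the gene. Capitals mark matches on either strand to TGATNNAT (a Hox and Pbx composite type), TAAT and the longer TAATNA that contains it (homeodomain cores), CCAAT and CACGTG (general promoter elements). The motifs were settled after the sequences had been seen.
Kcnj2, chr11:111065914-111066163 (+): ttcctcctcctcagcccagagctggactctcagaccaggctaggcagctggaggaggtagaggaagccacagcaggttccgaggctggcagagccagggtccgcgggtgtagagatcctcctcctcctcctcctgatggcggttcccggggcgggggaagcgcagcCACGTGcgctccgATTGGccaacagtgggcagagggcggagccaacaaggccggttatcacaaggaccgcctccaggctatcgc
Kcnd2, chr6:21215096-21215345 (+): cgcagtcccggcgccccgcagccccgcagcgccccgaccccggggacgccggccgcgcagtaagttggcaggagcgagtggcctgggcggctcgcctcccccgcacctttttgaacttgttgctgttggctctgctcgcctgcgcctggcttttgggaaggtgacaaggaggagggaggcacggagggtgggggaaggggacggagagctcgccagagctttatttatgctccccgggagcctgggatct
Kcna2, chr3:107101317-107101566 (+): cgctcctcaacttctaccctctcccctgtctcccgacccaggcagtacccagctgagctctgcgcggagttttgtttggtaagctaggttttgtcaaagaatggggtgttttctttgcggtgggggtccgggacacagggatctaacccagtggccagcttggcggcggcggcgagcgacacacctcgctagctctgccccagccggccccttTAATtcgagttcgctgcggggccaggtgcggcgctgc
Kcnq1ot1, chr7:143296548-143296797 (-): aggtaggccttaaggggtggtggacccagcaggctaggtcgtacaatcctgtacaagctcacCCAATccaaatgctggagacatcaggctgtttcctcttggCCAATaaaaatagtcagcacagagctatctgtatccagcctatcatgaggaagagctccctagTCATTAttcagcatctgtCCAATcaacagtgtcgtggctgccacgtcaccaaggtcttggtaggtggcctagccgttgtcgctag

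The Kcnd2 window held none of these letters, the Kcna2 window 1 TAAT, the Kcnj2 window 1 CACGTG and 1 CCAAT, and the Kcnq1ot1 window 1 TAATNA with 3 CCAAT. Of 32851 promoter windows of this length, 7.68% held TGATNNAT, 54.9% TAAT, 24.3% TAATNA, 33.8% CCAAT and 6.02% CACGTG. Of the 95 windows of members the shares were 3.16%, 43.2%, 20%, 30.5% and 6.32%. The 3 channel windows were rich in G and C, at 62.4% (Kcna2), 68.8% (Kcnd2) and 65.6% (Kcnj2), against medians of 58.8% for members and 52.4% for all windows, while that of Kcnq1ot1 had 51.2%.

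Genes that act with potassium channels were followed from lists. Among 20 partners that bind or place channels, 18 were tested. In Hoxa5tdTomato 2 were higher (Cntnap2 and Abcc9) and 1 was lower (Cntn2), and in the libraries labelled Math1Hoxa5-IRES-GFP 2 were higher (Cntnap2 and Dlg2) and 0 lower, where 1.73% and 1.84% of all genes passed. The medians were 0.13 and 0.32 on the log2 scale. Within the set, 0 and 3 partners passed, against 0.557% and 0.862% of all genes.

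Cntnap2 (Caspr2) and Cntn2 (TAG-1) hold Kv1 channels, Kcna2 among them, at the juxtaparanode of the axon. Cntnap2 was at 59.8 to 121 CPM in the references, 146 to 191 in Hoxa5tdTomato and 202 to 305 in the libraries labelled Math1Hoxa5-IRES-GFP, above all references in both groups. The log2 differences were 1.00 (adjusted p = 0.0184; within set 1, 0.0787) and 1.61 (adjusted p = 0.000273; within set 2, 0.00503) in edgeR. Cntn2 was at 197, 219 and 234 CPM in Hoxa5tdTomato against 443 to 832 in the references (log2 -1.41, adjusted p = 0.0141; within set 1, 0.0940, edgeR). In the libraries labelled Math1Hoxa5-IRES-GFP it was at 244, 237 and 558 CPM, with replicate 3 in the range of the references (adjusted p = 0.165).

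Dlg2 (PSD-93), a scaffold that binds Kv1 and Kir2 channels, was at 996, 1063 and 540 CPM in the libraries labelled Math1Hoxa5-IRES-GFP, above the 315 to 391 CPM of the references (log2 1.26, adjusted p = 0.000490; within set 2, 0.00586, edgeR). In Hoxa5tdTomato it was at 544 to 580 CPM and did not pass (log2 0.64, adjusted p = 0.0656). Abcc9 (SUR2), the subunit that pairs with Kcnj8 in pericytes, was at 38.7, 45.2 and 90.0 CPM in Hoxa5tdTomato against 0.0357 to 9.42 in the references (log2 4.31, adjusted p = 0.0360; within set 1, 0.314, edgeR), in the libraries where the vessel markers were high. Vapa passed within set 2 alone (log2 0.92, adjusted p = 0.0430, edgeR). It was at 90.9, 143 and 162 CPM in the libraries labelled Math1Hoxa5-IRES-GFP and 64.3 to 73.9 CPM in the set 2 references. The set 1 references held it at 143 to 146 CPM.

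**Figure D5:**
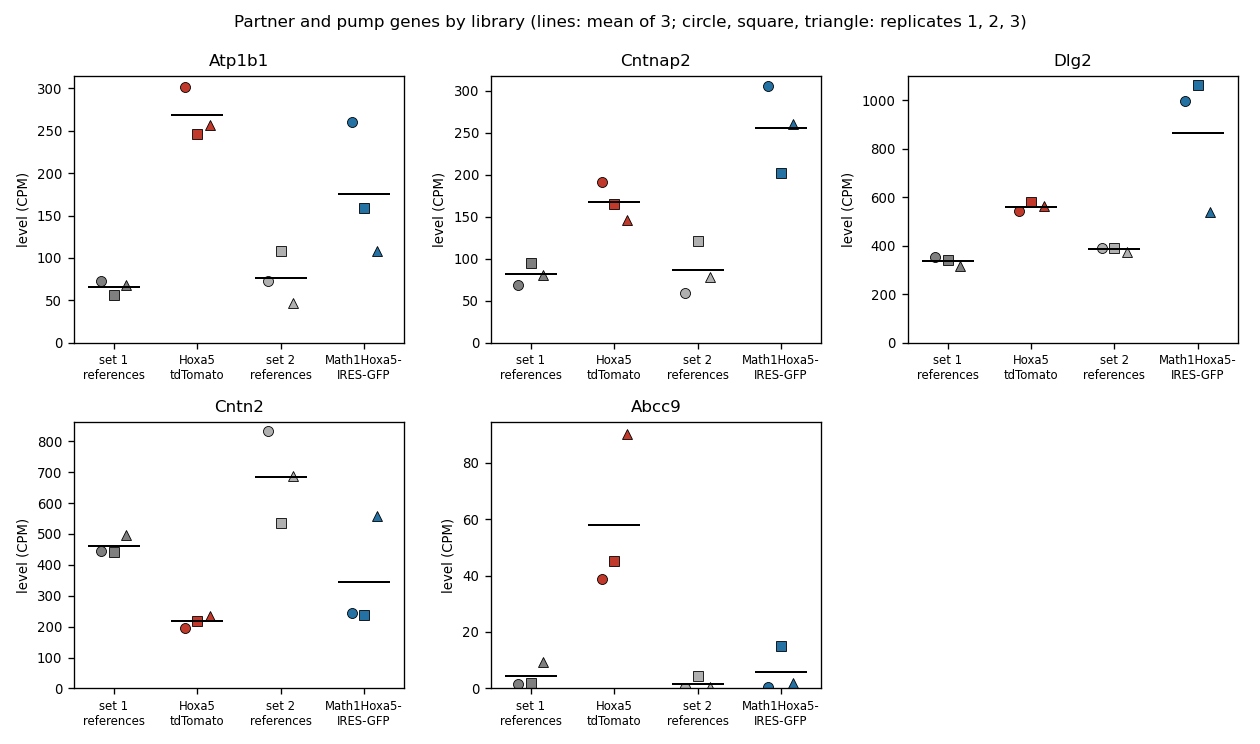
Level in CPM of 5 genes that act with potassium channels in each library, by group of columns; lines are means of 3 libraries and circles, squares and triangles are replicates 1, 2 and 3. Cntnap2 is above all references in both groups, Cntn2 is at 197 to 234 CPM in Hoxa5tdTomato, and Abcc9 is at 38.7 to 90.0 CPM in Hoxa5tdTomato against at most 15.0 CPM in any other library.

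The sodium-potassium pump restores the gradients that potassium channels use. Of 11 pump and cotransporter genes, 2 were higher in Hoxa5tdTomato (Atp1b1 and Slc12a5) and 2 in the libraries labelled Math1Hoxa5-IRES-GFP (Atp1b1 among them), against 0.842% and 1.30% of all genes, with 0 lower in either. Atp1b1, a beta subunit, was at 302, 246 and 257 CPM in Hoxa5tdTomato and 56.5 to 72.4 in the set 1 references (within set 1, log2 2.03, adjusted p = 0.00648, edgeR). In the libraries labelled Math1Hoxa5-IRES-GFP it was at 260, 159 and 108 CPM against 46.9 to 109 in the set 2 references (log2 against all 6 references 1.31, adjusted p = 0.0105; within set 2, 0.0794, edgeR). Slc12a5 (KCC2), the cotransporter that lowers chloride as neurons mature, was at 63.0 to 68.7 CPM in Hoxa5tdTomato and 9.90 to 34.2 in the references (log2 1.38, adjusted p = 0.0228; within set 1, 0.188, edgeR).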

How the data were processed

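Per the labels' protocols, each library began with 2000 pontine nucleus neurons sorted by FACS into lysis buffer. After PicoPure extraction, SPIA amplification (Ovation RNA-seq System V2) used 1000 cell equivalents, and TruSeq Nano libraries were made from 1 ng of cDNA. The authors deposited raw read counts per gene without normalization, in 1 table with Entrez identifiers, symbols and gene lengths. The submitters' processing notes name mm10 and bcl2fastq 1.8.4. Aligner, counter, annotation and strand setting: not given in the sources used here. SPIA amplification without molecular identifiers means that reads are not independent molecules, so floors cover counting error only.

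Libraries were grouped by the labels; reference columns carry numbers 1 to 3 in each set that could not be matched to the labels and were used by group. Genes were kept with filterByExpr (minimum count 10; 14732 of 23079). TMM scaling, a quasi-likelihood F test (edgeR 4.0.16, R 4.3.3) with 1 mean per label over all 12 libraries, and Benjamini-Hochberg adjustment over all tested genes at 0.05 gave the main results. The common dispersion was 0.312. A fit with 4 groups gave the values within a set, the difference between them and the comparison of both sets of references. Fold changes are log2 values ± standard error, and a group at 0 was bounded by a floor of 3 counts over the group. For edgeR this error was derived from the test, as the absolute log2 value divided by the square root of F. In simulated data for Hoxa5tdTomato against the references (14550 genes), 17 of 97 genes changed 2-fold and 61 of 97 changed 4-fold were called, with 1 false call. Alternatives were DESeq2 1.42.0, other scalings, no filter, thinned counts, a replicate block and leaving out each library. The members and lists were chosen with earlier results of these data known. Named genes were those called, the 4 highest per class by level per length, the 2 largest differences per class and direction with a mean of at least 1 CPM, those nearest the threshold, and members known from other cells; Kcna1, Kcna4, Kcna6, Kcnc1, Kcnd3, Kcng1, Kcnj5, Kcnq1, Kcnq3, Kcns3, Kcnt2, Nfib and partner genes were added after values were seen. Positions and promoters came from RefSeq (GRCm38.p6), which matched 96 of 96 members. Some genes are not reported here and are not drawn. No 2 libraries of a group were alike: at least 15169 genes differed in count.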

Additional observations from a re-analysis of the deposited data

How the results depend on the processing

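Between 0 and 5 potassium channel genes were called against the references with 1 library left out. The ranges were 0 to 4 for Hoxa5tdTomato (35 to 728 of all genes; 0 members without Hoxa5tdTomato replicate 2), 1 to 5 for Math1Hoxa5-IRES-GFP (190 to 575), 0 to 3 for the references of both sets (40 to 784), and 0 to 0 for the difference between the effects (0 to 3). Within the set, 1 and 1 members and 82 and 127 genes were called. DESeq2 called 5 and 7 members and 675 and 965 genes, 1 member and 80 genes for the difference, and 663 genes between the references. With only the libraries of the set, chosen after seeing the data, 9 and 1 members and 965 and 14 genes were called; within the set without replicate 3 of Math1Hoxa5-IRES-GFP, 6 members were called for that label. In set 1, correlations of deviations were 0.015 to 0.027 between libraries of the same column number and -0.036 to 0.012 between libraries of different numbers. In set 2 they were -0.045 to 0.044 and -0.087 to 0.112. All were small, and whether the numbers pair the libraries is not resolved. With the number as a replicate block, 72 and 77 genes, 2 members for Hoxa5tdTomato (Kcnd2 and Kcnj2), 1 for Math1Hoxa5-IRES-GFP (Kcnj2), and 1 gene and 0 members between the references were called. The cause of these shifts was not tested. For Math1Hoxa5-IRES-GFP with only its set, Kcnd2 (adjusted p = 0.667) and Kcnab3 (0.598) were not called in edgeR.

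The members called against all 6 references kept their direction there in every setting run. Values that did not, as log2 for Hoxa5tdTomato, were Kcnk2 (0.12 with library size only, 0.13 within the set and with the block, 0.16 with only its set), Kcnq1ot1 (-0.14, -0.13, -0.12), Kcnj16 (0.50, 0.75, 0.52), Kcnj9 (0.72, 0.56, 0.74) in the last 3 of these settings, and Kcnh1 (0.10 with the block); the within-set values were the same to 2 decimals without replicate 3 of Math1Hoxa5-IRES-GFP. For Math1Hoxa5-IRES-GFP they were Kcnh5 (0.18, 0.22, 0.19) and Kcnj9 (-0.45 with the block). Without replicate 3 and within the set, values for that label were Kcnh5 0.35, Kcnj9 -1.74, Kcnq1ot1 0.086, Kcnn2 0.25, Kcns2 0.25, Kcnab2 -0.35 and Hoxa5 -0.16. Ranges over the left-out libraries for Hoxa5tdTomato were Kcnab1 -1.16 to 0.089, Kcnj10 -0.31 to 0.78, Kcnj9 -1.17 to 0.42, Kcnk2 -0.11 to 0.11 and Kcnv1 -0.013 to 1.32. For Math1Hoxa5-IRES-GFP they were Kcnh1 -1.74 to 0.77, Kcnn1 -0.36 to 0.10, Kcnk1 -0.77 to 0.17, Kcna2 -0.81 to 0.026, Kcnc2 -0.063 to 0.77, Kcnj8 -0.63 to 2.38, Kcnh6 -0.26 to 2.01, Kcnc4 -0.67 to 3.08, Kcnj9 -1.16 to 1.62, Kcns2 -1.93 to 0.19, Kcnab2 -0.58 to 0.93 and Hoxa5 -0.098 to 1.797. A library's floor of 3 counts lay at 0.107 to 0.274 CPM, so members near it, such as Kcnab3 in Math1Hoxa5-IRES-GFP, are limited by depth.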
